A study of Mus musculus with 22 samples.

Results

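E14 is a mouse embryonic stem cell line. The comparison described here sets libraries from cells given a small interfering RNA (siRNA) against Rpl14 beside libraries from cells given the control siRNA, siNT. Of the 22 RNA-seq libraries in the study, 10 belong to these 2 groups: 5 siRpl14 and 5 siNT. The remaining libraries carry siRpl11, siDux or pairs of siRNAs and are not described here. Libraries were assigned to groups by their labels. Of the 2 deposited tables, the first holds 3 libraries of each group: the pairs numbered 1 and 2 and an unnumbered pair. The second holds 2 of each, numbered 1 and 2. Values from the 2 tables were never pooled.

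All cells were grown with leukemia inhibitory factor on gelatin, were transfected with DharmaFECT and were harvested 3 days later. The siRpl14 cells received siRpl14 together with siNT and the control cells siNT in both places, so every library carries siNT. The labels do not spell out what NT stands for. Separate cultures are not named for the replicates, so the spread behind each p-value is that between these libraries and may be technical. Loss of Rpl14 and other effects of this siRNA cannot be told apart in these groups. That the unnumbered pair is a separate experiment is read from the style of its titles alone.

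Rpl14 encodes a protein of the large (60S) ribosomal subunit. When assembly of that subunit is blocked, free ribosomal proteins such as Rpl11 and Rpl5 can bind Mdm2, the ubiquitin ligase that keeps p53 low, so that p53 accumulates and its target genes are transcribed. Embryonic stem cell cultures also hold a few cells in a 2C-like state, in which the transcription factor Dux switches on genes of the 2-cell embryo such as the Zscan4 cluster.

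Rpl14 itself was measured first. In the first table, with libraries always listed as pair 1, pair 2 and the unnumbered pair, it stood at 1550.3, 1417 and 1025 FPKM in siNT and 893, 402 and 354 FPKM in siRpl14. The second table gave 1361 and 1094 FPKM in siNT and 329 and 302 FPKM in siRpl14. The groups did not overlap in either table, but replicate 1 of siRpl14 in the first table stood well above the other siRpl14 libraries. The change was -1.38 ± 0.25 (SE) on the log2(FPKM + 1) scale in the first table (limma, adjusted p = 0.00314) and -1.95 ± 0.17 (SE) in the second table (limma, adjusted p = 0.00672). The second-table call was lost without either siRpl14 library, with an adjusted p of up to 0.0697. FPKM are fragment numbers scaled to transcript length and to the library's total, and a fold change of log2(FPKM + 1) understates the change of genes with low values. The pseudogene Rpl14-ps1, a copy whose reads may in truth be Rpl14's, fell too, from 34.8 ± 7.29 to 13.3 ± 6.1 FPKM (SD, n = 3) in the first table, and lost the second-table call without any of 3 libraries (adjusted p up to 0.204). Rpl11, the other ribosomal protein gene targeted in the study, was not called in the first table, where it stood at 829, 661 and 643 FPKM in siNT and 681, 624 and 638 FPKM in siRpl14 with an adjusted p of 0.425 in limma.

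The libraries carried the marks of embryonic stem cells. The summed level of 6 markers (Pou5f1, Sox2, Nanog, Zfp42, Esrrb and Dppa5a) was 6289 to 7485 FPKM in siNT and 4182 to 5016 FPKM in siRpl14 in the first table, and 2154 to 2626 against 1706 to 2049 FPKM in the second table. Of 6 fibroblast markers, 5 stayed under 1 FPKM in every library of the first table, with Col3a1 and Postn at 0, and Thy1 made up most of a sum of 10.76 to 15.55 FPKM in siNT and 4.58 to 8.95 FPKM in siRpl14. The 5 primitive endoderm markers summed to 2.32 to 3.86 FPKM in siNT and 3.48 to 6.55 FPKM in siRpl14. The 5 trophectoderm markers summed to 2.4 to 3.76 FPKM in siNT and 6.61 to 14.56 FPKM in siRpl14 of the first table, and to 2.77 to 4.41 and 1.31 to 2.79 FPKM in the second table. The part of these shifts in the results below was not tested. The second table holds many more zeros: 50.5 to 55.7% of its 24819 genes are listed at 0 per library, against 30.1 to 32.1% in the first table.

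In the first table, 11873 genes had at least 1 FPKM in at least 3 of the 6 libraries and were tested. Of these, 5335 (44.9%) were called at an adjusted p under 0.05: 2849 (24.0%) higher and 2486 (20.9%) lower in siRpl14. Most changes were small, with 562 genes higher by at least 2-fold and 333 lower by at least 2-fold. The count was 3380 without the unnumbered siNT library, 3445 without replicate 2 of siRpl14 and 3332 without the unnumbered siRpl14 library. Under quantile normalization 2542 genes were higher and 2814 lower, so which direction holds more calls depends on the scaling. In the second table, 13189 genes were tested and 87 (0.66%) were called, 70 (0.531%) higher and 17 (0.129%) lower, and leaving out any 1 of its siNT and siRpl14 libraries left between 8 and 30. Counts of list members below are to be read against these shares, and against a median change over all tested genes of 0.03 in the first table and -0.05 in the second table.

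**Figure D1:**
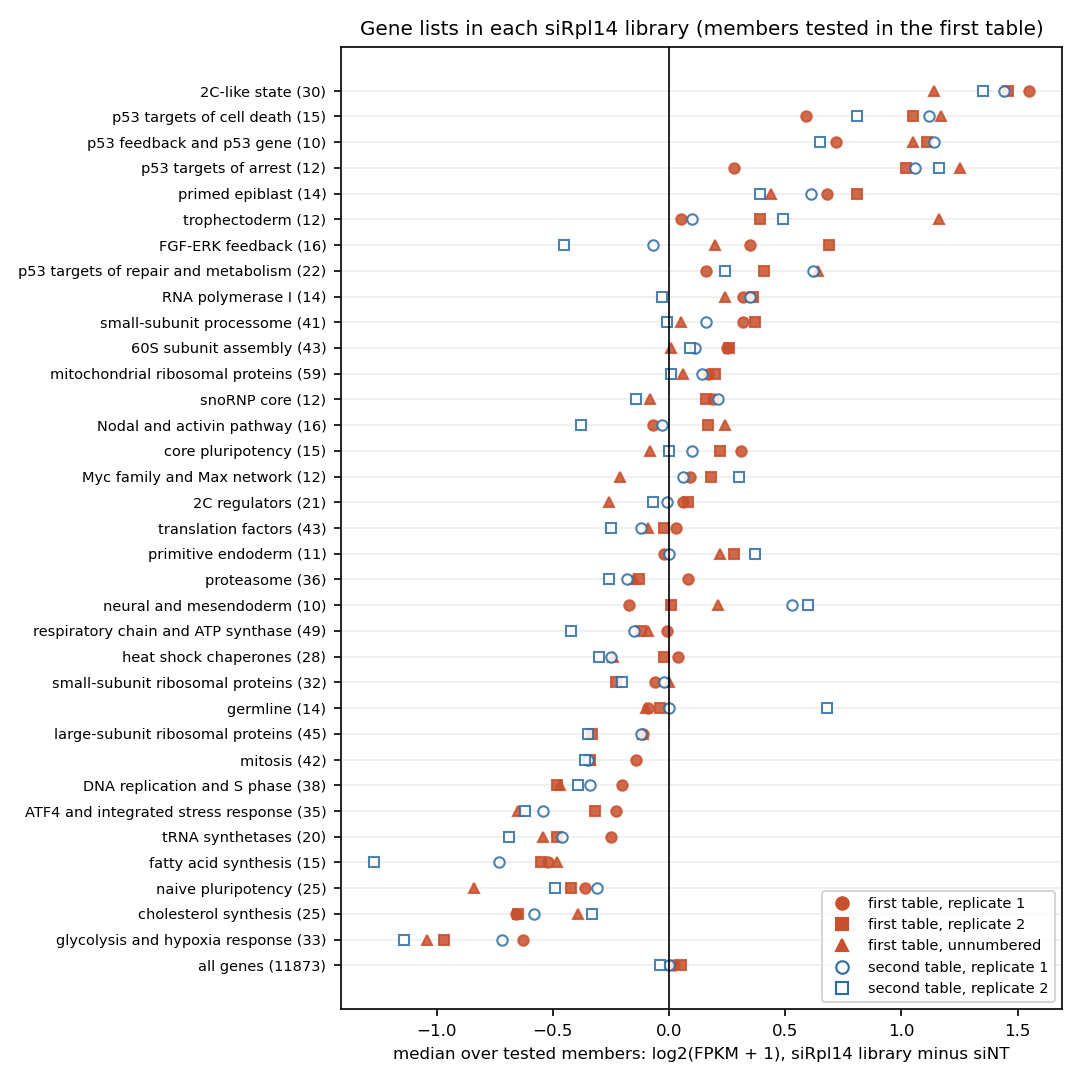
Median change of each gene list in each siRpl14 library, as log2(FPKM + 1) in that library minus the siNT mean (in the first table, minus the siNT of the same title style); filled red marks are the 3 libraries of the first table and open blue marks the 2 of the second table, each over the members tested in that table. The 2C-like and p53 lists lie to the right of zero in all 5 libraries, and the glycolysis, cholesterol and fatty acid lists to the left.

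Genes of the 2C-like state rose together in the first table. All 30 tested members of the 48 listed were called higher, with a median log2 change of 1.39, and none was called lower. Zscan4d, a marker of the state, stood at 11.3, 12.7 and 26.1 FPKM in siNT and 35.7, 36.2 and 58.1 FPKM in siRpl14, and rose by 1.38 ± 0.12 (SE) (limma, adjusted p = 5.66e-05). Zscan4c, of the same telomere-protecting cluster, stood at 10.6, 8.96 and 18.6 FPKM in siNT and 24.5, 25.6 and 41.3 FPKM in siRpl14. In both genes the unnumbered pair ran higher than the numbered pairs in siNT as well as in siRpl14, and every siRpl14 library lay above every siNT library. Zfp352, a retrogene of the same stage, stood at 0.481, 0.167 and 0.826 FPKM in siNT and 2.34, 2.07 and 3.81 FPKM in siRpl14, and Usp17lb, a deubiquitinase of a multicopy family, at 2, 2.03 and 5.41 FPKM in siNT and 15.3, 14 and 27.5 FPKM in siRpl14. Zfp352 was under 1 FPKM in every siNT library, so it passed the filter only through siRpl14 and had to be higher. Usp17lb rose by 2.30 ± 0.12 (SE), Usp17la by 2.00 ± 0.12 (SE) and Usp17lc by 1.99 ± 0.19 (SE). Reads of these near-identical copies may be shared among them by the authors' counting, so their separate values are uncertain.

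Ddit4l, listed with the 2C-like genes and known as a stress-induced inhibitor of mTOR, had the largest change of the list, from 6.63 ± 2.24 to 47.2 ± 14.5 FPKM (SD, n = 3). The siNT and siRpl14 values did not overlap for 29 of the 30 members, against 29.6% of all tested genes that were higher without overlap. Of the 30 members, 7 never reached 1 FPKM in a siNT library, so they passed the filter on low values only through siRpl14 and had to be higher, as had 235 of all tested genes. Without any one of the siRpl14 libraries 23 members were tested, and 23 were called. In the second table, 25 members were tested, with a median of 1.48, and 18 were higher without overlap against 18.5% of all genes, but no member was called. Of these 25 members, 6 never reached 1 FPKM in a siNT library of the second table, as was so for 1280 of all tested genes. They passed the filter only through other groups, which favors a higher value in siRpl14. There Zscan4c stood at 3.37 and 2.14 FPKM in siNT and 11.3 and 9.88 FPKM in siRpl14. In bulk libraries more cells in the state and more RNA per such cell cannot be told apart.

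Dux, the activator of this program, was near the lower limit of measurement, at 0.368, 0.202 and 0.306 FPKM in siNT and 1.45, 1.11 and 1.5 FPKM in siRpl14. It passed the filter of the first table only through siRpl14, so its direction there was fixed by the filter, and it missed the filter when a siRpl14 library was left out. It was listed in the second table at 0 in both siNT libraries and in replicate 1 of siRpl14, and at 3.03 FPKM in replicate 2. Of 21 genes known to regulate the state, 7 rose and 7 fell, with a median of 0.02. The 7 that fell were 0 without either unnumbered library, 3 without replicate 2 of siNT and 4 without replicate 2 of siRpl14. Dppa2, an activator of Dux, rose from 53.3 ± 16 to 105 ± 24.6 FPKM (SD, n = 3), and Nelfa from 43.4 ± 2.81 to 72 ± 9.04 FPKM (SD, n = 3). Chaf1a and Trim28, repressors of the state, were not called. Lin28a, on the same list of regulators, also rose, by 0.91 to 1.1 on the log2 scale over 17 fits. The genes named here are only a part of the list, and none of the 7 that fell is among them.

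The promoters of 2C-like genes often hold the core of the known Dux site. RefSeq promoters (GRCm38.p6, 250 bases before to 50 after each start) were found for 29 of the list's 41 genes in the tables. The letters TGATTNAAT, searched on both strands, were in 10 of the 29 (34.5%), in 0.84% of the genes of all 27025 with a promoter and in 0.561% of the 2317 matched genes called higher. Members of a family share their promoters, so the 10 are not separate cases. Stretches upstream of 3 members of different families are printed with a match in capitals, to show the site in its setting: Zscan4c at chr7:11005516-11005614 on the plus strand, Gm13119 (Pramel31 in RefSeq) at chr4:144357761-144357859 on the plus strand, and BB287469 at chr12:87816403-87816501 on the plus strand.
Zscan4c: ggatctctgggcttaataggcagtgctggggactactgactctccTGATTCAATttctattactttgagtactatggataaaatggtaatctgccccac
Gm13119: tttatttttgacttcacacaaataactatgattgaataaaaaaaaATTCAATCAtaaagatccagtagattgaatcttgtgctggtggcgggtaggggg
BB287469: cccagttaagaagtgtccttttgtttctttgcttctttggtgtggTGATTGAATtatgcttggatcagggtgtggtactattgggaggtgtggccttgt
Upstream of Gm13119 there are 2 matches, of which the capitals mark the one nearer the start and the other stands in lower case. The marked match begins at position -184 relative to the start of Zscan4c, -158 in Gm13119 and -129 in BB287469. In the first table Gm13119 stood at 2.18, 1.27 and 3.52 FPKM in siNT and 5.42, 4.17 and 7.01 FPKM in siRpl14, and BB287469 at 0.103, 0.216 and 0.841 FPKM in siNT and 1.01, 2.18 and 1.24 FPKM in siRpl14. BB287469 was under 1 FPKM in every siNT library and had to be higher to pass the filter. Zscan4c is given above, and for it and Gm13119 the groups did not overlap. A match describes letters in a window and is not evidence of binding.

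Targets of p53 formed the other large group that rose. Mdm2, which is both the inhibitor and a target of p53, stood at 66, 47.7 and 51.4 FPKM in siNT and 244, 410.3 and 472 FPKM in siRpl14 in the first table and at 20.2 and 14.9 FPKM in siNT and 143 and 128 FPKM in siRpl14 in the second table. It rose by 2.71 ± 0.23 (SE) (limma, adjusted p = 0.000119) and 2.89 ± 0.37 (SE) (limma, adjusted p = 0.0229), with no overlap of groups, although the second-table call was lost without any 1 of its 4 libraries (adjusted p up to 0.154). The p53 gene itself, Trp53, stood at 143, 177 and 197 FPKM in siNT and 257, 396 and 387 FPKM in siRpl14, and rose by 0.99 ± 0.16 (SE) (limma, adjusted p = 0.00117), but in the second table the values were 27.9 and 31.4 FPKM in siNT and 41.3 and 38.8 FPKM in siRpl14, without a call. Of 10 genes in the feedback list, 8 rose and 1 fell, and the number risen was 8 without any 1 library. The cyclin G gene Ccng1 and the p53 partner Trp53inp1 also rose in both tables, Ccng1 by 1.47 ± 0.22 (SE) and 1.53 ± 0.23 (SE) and Trp53inp1 by 2.03 ± 0.24 (SE) and 2.00 ± 0.20 (SE). Both calls in the second table were lost without any 1 library. Sesn1, a stress-induced regulator of mTOR, fell by 0.47 on the log2 scale and lost that call without any of 3 libraries (adjusted p up to 0.0615).

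Among 15 tested p53 targets that act in cell death, 12 rose and none fell, with a median of 0.97. Perp, a membrane protein of p53-dependent death, stood at 14.4, 10.1 and 10.7 FPKM in siNT and 87.4, 210.4 and 225 FPKM in siRpl14 in the first table and at 4.98 and 3.1 FPKM in siNT and 95 and 81.3 FPKM in siRpl14 in the second table. Its rise of 3.68 ± 0.37 (SE) and 4.17 ± 0.30 (SE) (limma, adjusted p = 0.000927 and 0.00212) held in the second table without any 1 library. The death receptor Fas was below 1 FPKM in siNT of the first table, so it had to be higher to pass the filter, and had values of 7.37 to 12.5 FPKM in siRpl14. The apoptosome component Apaf1 rose by 1.58 ± 0.15 (SE), and the phosphatase Ptpn14 by 2.98 ± 0.22 (SE) and, in the second table, 3.34 ± 0.42 (SE). Of 12 targets of growth arrest, 7 rose and 3 fell. Plk2, a kinase, stood at 20.3, 11.5 and 14 FPKM in siNT and 84.8, 155 and 188 FPKM in siRpl14 and rose by 3.10 ± 0.30 (SE) and, in the second table, 3.65 ± 0.33 (SE). The second-table call of Ptpn14 was lost without any 1 library and that of Plk2 without either siRpl14 library. Btg2, Gadd45g and Ptprv rose by 1.93 ± 0.22 (SE), 2.73 ± 0.34 (SE) and 2.64 ± 0.17 (SE). Gadd45b, a relative of Gadd45g, fell by 1.03 on the log2 scale.

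Cdkn1a, the gene of the cyclin kinase inhibitor p21, was not called in the first table, where it stood at 77.2, 63.5 and 45.3 FPKM in siNT and 61.6, 117 and 125 FPKM in siRpl14 (adjusted p = 0.119 in limma). Its replicate 1 of siRpl14 lay inside the siNT range and the other siRpl14 libraries above it. Without that library Cdkn1a was called, at a log2 change of 1.03 (limma, adjusted p = 0.00112). The second table gave 17.1 and 24.6 FPKM in siNT and 55.9 and 47.8 FPKM in siRpl14, above siNT in both libraries and without a call. In the list of p53 targets in repair and metabolism, 11 of 22 rose and 8 fell, the latter 4 without replicate 1 of siNT and 5 without replicate 2 of siRpl14. The peptide transporter Tap1 rose from 2.03 ± 0.942 to 17.2 ± 4.27 FPKM (SD, n = 3), D630023F18Rik from 4.84 ± 0.882 to 39.3 ± 9.7 FPKM (SD, n = 3) and the Akt inhibitor Phlda3 from 40.8 ± 8.45 to 163 ± 56.2 FPKM (SD, n = 3), whereas the glutaminase Gls2 and the damage-recognition gene Ddb2 fell by 1.18 and 0.80 on the log2 scale. The medians in the second table for the feedback, death, arrest and repair lists were 0.86, 0.99, 1.02 and 0.44, with 3, 2, 1 and 0 members called, all higher. A full p53 site, made of paired half-sites, was searched in the promoter windows used above. Among matched genes it was in 1 of 11 arrest targets, Cdkn1a. It was in 0 of 9 feedback, 0 of 13 death and 0 of 17 repair genes, and in 0.074% of all genes.

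**Figure D2:**
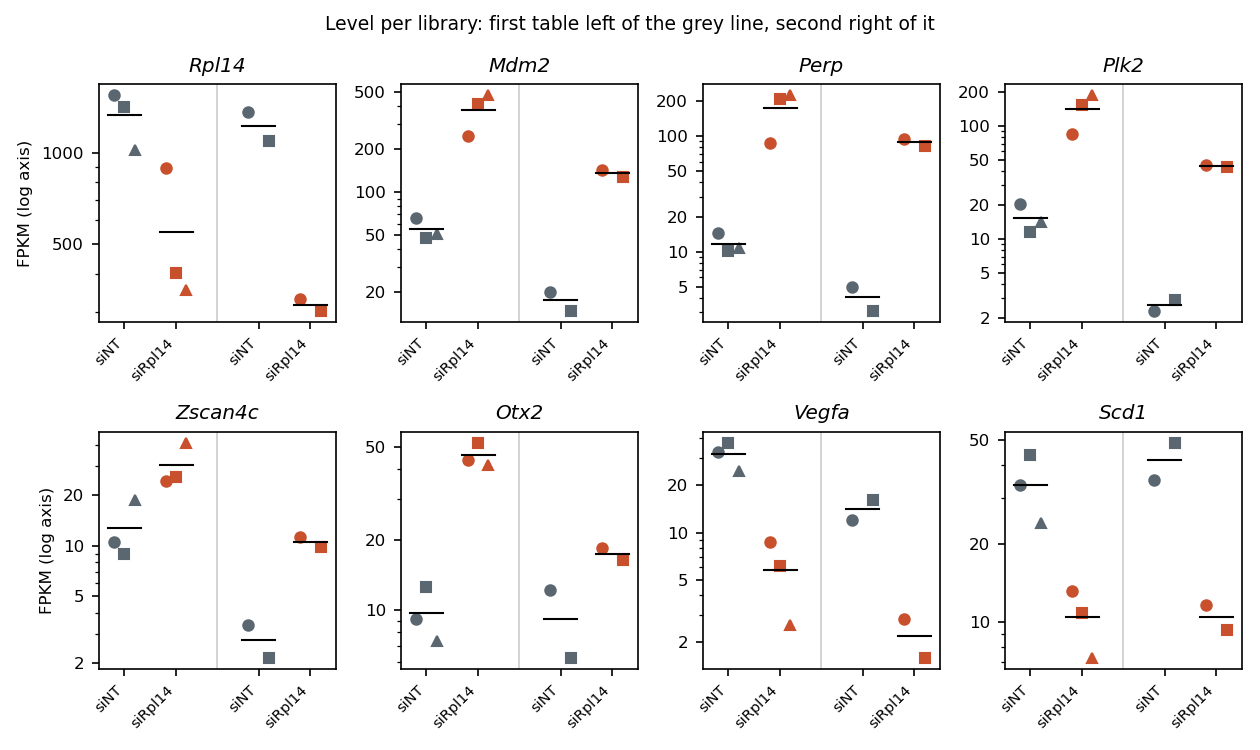
FPKM of 8 genes in each library on log axes; grey marks are siNT, red marks siRpl14, circles replicate 1, squares replicate 2, triangles the unnumbered pair of the first table, and bars the group means. In the first table the siRpl14 circle is nearest to siNT for Rpl14, Mdm2, Perp, Plk2, Vegfa and Scd1, and no gene shows overlap between siNT and siRpl14 within a table.

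Genes of the ribosome itself changed little. Of 45 other large-subunit protein genes tested, 5 were called lower and none higher, with a median of -0.18. That number was 2 without replicate 1 or the unnumbered siNT library, or without replicate 2 or the unnumbered siRpl14 library, and 10 without replicate 2 of siNT or replicate 1 of siRpl14. It was 12 with the other siRNA groups in the fit and 17 with a replicate block. Under quantile normalization 5 were higher and 6 lower, with a median of -0.03, so the direction of this list depends on the scaling. Rpl3, the core protein of the subunit, moved most, at 1859.9, 1403 and 1414 FPKM in siNT and 1083, 640.2 and 679 FPKM in siRpl14, a change of -0.99 ± 0.19 (SE) (limma, adjusted p = 0.00343) whose call held without any 1 library. Rpl10a fell by 0.58, and Rpl22 by 0.47, the latter lost without any of 4 libraries (adjusted p up to 0.0802). Rpl22l1, the paralog of Rpl22, was at 45.6, 47.9 and 86.5 FPKM in siNT and 93, 66.9 and 57.3 FPKM in siRpl14 in the first table, and at 883 and 598 FPKM in siNT and 326 and 336 FPKM in siRpl14 in the second table, without a call in either. It was called in the first table without either unnumbered library, at a log2 change of 0.74 (limma, adjusted p down to 0.00838). Of 32 small-subunit protein genes, 1 was higher and 2 were lower (median -0.13), and the 2 were lost without any of 4 libraries. The number higher was 5 without replicate 1 of siNT, and quantile normalization gave 8 higher and 1 lower with a median of 0.06. Many ribosomal protein genes have processed copies that share their reads.

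Lists of genes for making ribosomes had small positive medians. Of 41 small-subunit processome genes, 18 rose and 2 fell (median 0.27), of 43 genes of 60S assembly, 11 rose and 1 fell (0.18), and of 14 RNA polymerase I genes, 7 rose and none fell (0.28). For 60S assembly the number risen was near the 24.0% of all tested genes called higher. The number risen dropped to 8 for the processome without replicate 1 of siNT, and to 6 for 60S assembly without replicate 1 of siNT or replicate 2 of siRpl14. The Pol I large subunit Polr1a stood at 27.6, 35.7 and 38.1 FPKM in siNT and 48.8, 67.1 and 69.2 FPKM in siRpl14, with no overlap, and rose by 0.85 ± 0.14 (SE). The processome scaffold Utp20 rose by 0.94 ± 0.13 (SE), and Rrp12, a factor in export of both subunits, by 0.80 ± 0.10 (SE). In 60S assembly, Ddx56, Brix1 and Nmd3 rose, from 19 ± 4.26 to 44.9 ± 9.5 FPKM (SD, n = 3), from 44.9 ± 6.89 to 89.3 ± 17.5 FPKM (SD, n = 3) and from 43.5 ± 13 to 66.1 ± 4.9 FPKM (SD, n = 3). Of 12 snoRNP core genes, 2 rose, Nop58 by 0.75 ± 0.15 (SE) among them, and Nop10 fell by 0.62. In the unnumbered pair the 60S and processome medians were 0.01 and 0.05, below those of the numbered pairs. In the second table the medians of the fitted changes were -0.02 and 0.05. The medians of its single siRpl14 libraries were 0.11 and 0.09 for 60S assembly and 0.16 and -0.01 for the processome. The direction of these lists outside the numbered pairs is therefore not clear.

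Many genes of amino acid supply and tRNA charging fell. Of 20 cytosolic tRNA synthetase genes, 12 fell and none rose, with a median of -0.4, and 15 were lower without overlap against 24.7% of all genes. Sars, which charges serine tRNA, stood at 113, 113 and 111 FPKM in siNT and 71.7, 41.2 and 39.9 FPKM in siRpl14 and fell by 1.18 on the log2 scale. Nars, Aars and Yars fell by 0.99, 0.88 and 0.85. Of 35 genes of the ATF4 and integrated stress response list, 17 fell and 6 rose. Nupr1, a stress-induced nuclear protein, had the largest fall of all genes that separated the groups, from 64.6 ± 8.34 to 8.76 ± 5.96 FPKM (SD, n = 3), a change of -2.91 ± 0.29 (SE) (limma, adjusted p = 0.000351). Pycr1, of proline synthesis, stood at 29, 27.8 and 24.2 FPKM in siNT and 10.2, 3.99 and 4.74 FPKM in siRpl14.

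Phgdh and Psat1, enzymes of serine synthesis, both fell. Phgdh stood at 149.6, 149 and 147 FPKM in siNT and 74.2, 31.4 and 28 FPKM in siRpl14 in the first table and at 45.3 and 45.7 FPKM in siNT and 3.64 and 7.78 FPKM in siRpl14 in the second table, and fell in both, by 1.85 and by 2.86 on the log2 scale (limma, adjusted p = 0.00314 and 0.0395), the second-table call being lost without any 1 library. Psat1 fell by 1.47 in the first table. Atf4 itself stood at 141, 169 and 176 FPKM in siNT and 136, 183 and 164 FPKM in siRpl14, with overlapping groups and no call. Not every member fell: the amino acid transporter Slc38a2 rose by 1.44 ± 0.16 (SE) and Ddit4, an inhibitor of mTOR, by 1.14 ± 0.23 (SE). The medians in the second table were -0.57 for the synthetases and -0.42 for the ATF4 list. Among translation factors, 8 of 43 rose and 7 fell: Eif1, which reads the start codon, rose from 330.2 ± 29.7 to 622 ± 127 FPKM (SD, n = 3) and the helicase Eif4a2 fell by 0.87. The count of translation factors risen was 5 without replicate 2 of siNT. The count fallen was 12 without replicate 1 of siRpl14 and 4 without either unnumbered library.

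A short ATF4 core, TGATGNAA on either strand, was in the promoters of 5 of 13 matched synthetase genes (38.5%) and 10 of 33 genes of the ATF4 list (30.3%), against 4.51% of all genes, 3.94% of genes called lower and 2.81% of genes called higher. Upstream stretches of 3 genes that fell are printed with that core in capitals: Nupr1 at chr7:126625528-126625625 on the minus strand, Pycr1 at chr11:120643799-120643896 on the minus strand, and Aars at chr8:111033685-111033782 on the plus strand.
Nupr1: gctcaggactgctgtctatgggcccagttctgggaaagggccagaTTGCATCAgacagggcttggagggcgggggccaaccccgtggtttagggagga
Pycr1: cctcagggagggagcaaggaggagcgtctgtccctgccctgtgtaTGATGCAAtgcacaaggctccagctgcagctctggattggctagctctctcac
Aars: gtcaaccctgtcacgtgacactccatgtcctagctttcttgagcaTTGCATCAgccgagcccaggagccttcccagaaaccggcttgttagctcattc
The cores begin at positions -110, -103 and -112 relative to the start sites. This core is known as the C/EBP-ATF response element, and a match is again a description of letters only. The 3 genes printed were picked because they fell, and how the other genes with the core moved was not set beside them. The ATF4 list was chosen for that factor, so its share of the core is not independent of the choice.

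Lipid synthesis genes fell in both branches. Of 25 genes of the cholesterol list, 19 fell and none rose, with a median of -0.55. Insig1, which holds the SREBP complex in the endoplasmic reticulum, stood at 53.6, 55.6 and 32.4 FPKM in siNT and 18.3, 14.6 and 11.9 FPKM in siRpl14 and fell by 1.58 on the log2 scale (limma, adjusted p = 3.87e-05). The sterol oxidase Msmo1 stood at 65.6, 59.1 and 42.8 FPKM in siNT and 23.2, 23 and 19.6 FPKM in siRpl14 and fell by 1.29. In both genes every siRpl14 library lay below every siNT library. Of 15 fatty acid genes, 11 fell and none rose, with a median of -0.51, and 7 fell without replicate 2 of siNT. The desaturase Scd1 stood at 33.5, 43.9 and 23.9 FPKM in siNT and 13.2, 10.8 and 7.24 FPKM in siRpl14 in the first table and at 35.3 and 49 FPKM in siNT and 11.6 and 9.3 FPKM in siRpl14 in the second table. Its relative Scd2 fell in both tables, by 1.03 and by 1.23 (limma, adjusted p = 0.000481 and 0.0307), though the second-table call was lost without any 1 library. Fads1 and Acsl3 fell by 0.93 and 0.85. The CCAAT box was in 16 of 17 matched cholesterol promoters (94.1%) and in 41.1% of all genes, and the letters TCACNCCAC of the SREBP site were in 0 of the 17, against 1.44% of all genes. The medians in the second table were -0.44 for the cholesterol and -0.74 for the fatty acid list.

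Nearly all genes listed for glycolysis and the hypoxia response fell. Of 33 tested members, 30 fell and 2 rose, with a median of -0.87, and between 26 and 31 fell when 1 library was left out. Vegfa, the vascular growth factor, stood at 32.6, 37.4 and 24.6 FPKM in siNT and 8.65, 6.15 and 2.58 FPKM in siRpl14 in the first table, a change of -2.36 ± 0.17 (SE) (limma, adjusted p = 3.39e-05), and at 12 and 16.1 FPKM in siNT and 2.81 and 1.59 FPKM in siRpl14 in the second table. The phosphofructokinase Pfkp stood at 245, 251 and 179.8 FPKM in siNT and 103, 60.4 and 31.7 FPKM in siRpl14, and the aldolase Aldoc at 34.7, 27.8 and 13.6 FPKM in siNT and 11.1, 5.37 and 2.97 FPKM in siRpl14. In these 3 genes the unnumbered siRpl14 library was lowest and replicate 1 highest of the siRpl14 libraries. Gapdh, often used as a reference gene, stood at 4093, 3748 and 2972 FPKM in siNT and 2747, 2081 and 1998 FPKM in siRpl14, and fell by 0.67 (limma, adjusted p = 0.00421). The 2 members that rose were Pfkfb4, a regulator of glycolytic flux, by 1.62 ± 0.13 (SE), and Hif1a, the hypoxia-inducible factor itself, from 20.6 ± 4.83 to 35.9 ± 5.6 FPKM (SD, n = 3). In the second table the median was -0.99, 26 of 34 were lower without overlap against 22.4% of all genes, and 1, the lactate dehydrogenase Ldha, was called.

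Cell cycle genes fell moderately. Of 38 genes of DNA replication, 22 fell and none rose (median -0.38), but 8 fell without the unnumbered siNT library. The S-phase activator E2f1 stood at 32.2, 31 and 24.4 FPKM in siNT and 18.1, 13.4 and 13.4 FPKM in siRpl14, and E2f2 at 8.98, 10.3 and 10.7 FPKM in siNT and 5.62, 3.14 and 3.41 FPKM in siRpl14. Uhrf1, which maintains DNA methylation at replication, fell by 0.64. Of 42 mitosis genes, 20 fell and 2 rose (median -0.26), and 12 fell without the unnumbered siNT library or without replicate 2 or the unnumbered library of siRpl14. The kinesins Kif23 and Kif2c and the phosphatase Cdc25b fell by 0.96, 0.80 and 0.86, while the kinesin Kif15 rose by 0.56 ± 0.11 (SE). The E2F letters TTTNNCGC were in 16 of 31 matched promoters of the replication list (51.6%) and in 5.93% of all genes. They were in 9.22% of genes called lower and in 10.1% of those called higher.

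Naive pluripotency genes mostly fell and primed epiblast genes mostly rose. Of 25 naive genes, 17 fell and 4 rose, with a median of -0.54, and 9 fell without the unnumbered siNT library. Tfcp2l1, a factor of the naive state, stood at 84.4, 91.4 and 77.8 FPKM in siNT and 48.9, 40.0 and 30.3 FPKM in siRpl14, with no overlap. Tcl1, Fgf4 and Spp1 fell by 1.40, 1.17 and 1.37, and Dppa3 rose by 0.73 ± 0.14 (SE). Of 14 tested genes of the primed epiblast, 9 rose and 1, Fgf15, fell. Otx2, which directs the exit from the naive state, stood at 9.17, 12.6 and 7.37 FPKM in siNT and 43.9, 52.2 and 41.7 FPKM in siRpl14, and rose by 2.15 ± 0.14 (SE) (limma, adjusted p = 2.29e-05). Cldn6, Sall2 and Pim2 rose by 1.51 ± 0.19 (SE), 1.70 ± 0.21 (SE) and 1.71 ± 0.26 (SE).

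The core factors did not move together. Of 15 core genes, 6 rose and 3 fell. Pou5f1 (Oct4) stood at 945, 950.2 and 989 FPKM in siNT and 815, 881 and 769.7 FPKM in siRpl14, and was not called (adjusted p = 0.119 in limma). Nanog stood at 349, 378 and 449 FPKM in siNT and 270.2, 237 and 221 FPKM in siRpl14 and fell by 0.68 (limma, adjusted p = 0.00243). Sox2 rose by 0.29 ± 0.10 (SE), a call lost without any of 5 libraries (adjusted p up to 0.155). Sall4, Lin28a and Dnmt3l rose by 0.93 ± 0.10 (SE), 1.00 ± 0.12 (SE) and 0.67 ± 0.11 (SE), and Tdgf1, a Nodal co-receptor, fell by 0.78. The number of core genes risen was 3 without replicate 1 of siNT or replicate 2 of siRpl14. The medians in the second table were -0.43 for the naive, 0.28 for the primed and 0.09 for the core list, with no member called.

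Genes of other lineages were in part low. At least 5 FPKM in at least 3 of the 6 libraries was reached by 6 trophectoderm, 5 primitive endoderm and 3 neural and mesendoderm genes. Of 12 tested trophectoderm genes, 5 rose and 1 fell, and 2 rose without replicate 2 or the unnumbered library of siRpl14. Gata3, a trophectoderm factor, was listed at 0.0838, 0.0878 and 0.114 FPKM in siNT and 1.31, 2.57 and 5.49 FPKM in siRpl14, and the keratin Krt7 at 0.851, 0.397 and 0.185 FPKM in siNT and 3.24, 4.85 and 4.38 FPKM in siRpl14. These 2 of the 5 passed the filter only through siRpl14 and had to be higher. Cdx2 and Elf5, the defining factors, missed the filter, and Eomes, at 1.93 to 2.82 FPKM, was not called. Tead4 fell by 1.08. Primitive endoderm genes were called 3 higher and 3 lower of 11, and neural and mesendoderm genes 3 higher and 2 lower of 10, the 2 being lost without either unnumbered library or replicate 2 of siRpl14. In the neural and mesendoderm list, 1 tested member never reached 1 FPKM in siNT and had to be higher. Nes, an intermediate filament of neural progenitors, rose from 1.96 ± 0.362 to 6.68 ± 1.31 FPKM (SD, n = 3).

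**Figure D3:**
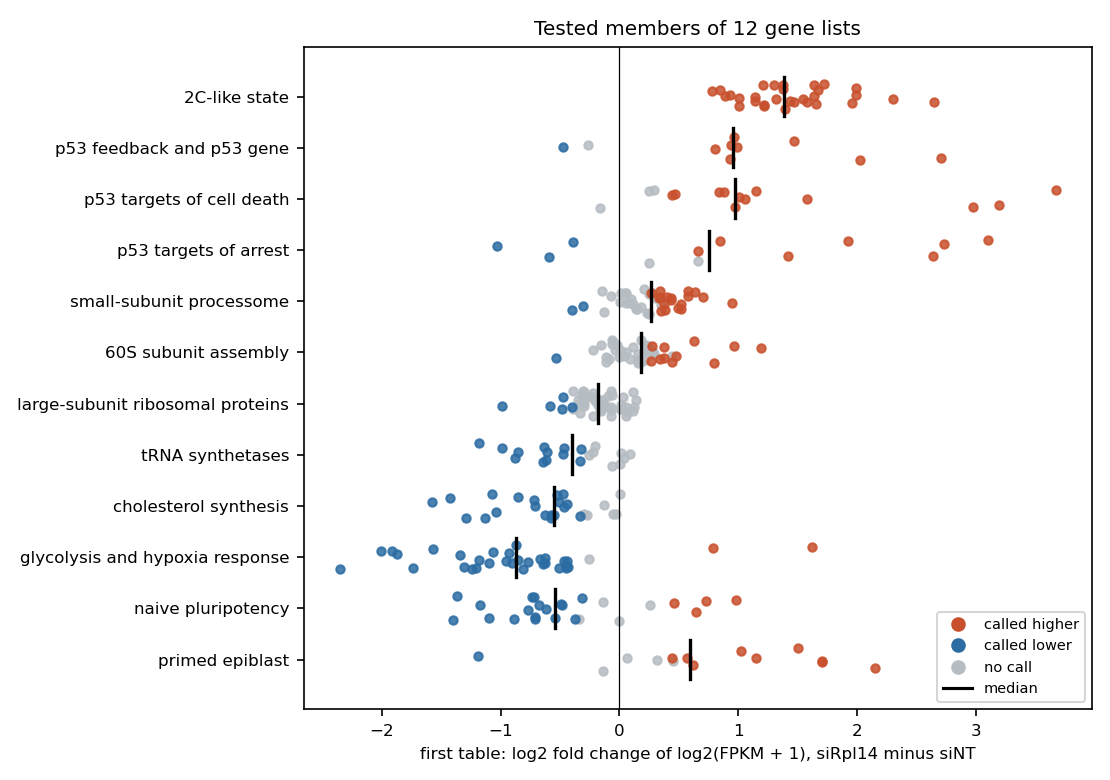
Fitted log2 change in the first table of each tested member of 12 gene lists; red marks were called higher, blue marks lower, grey marks not called, and black bars are list medians. The 2C-like members lie between 0.78 and 2.65, all called higher, whereas large-subunit ribosomal protein genes cluster near zero with Rpl3 at -0.99 as the lowest.

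The largest single changes in the first table lay partly outside these lists. Among genes whose groups did not overlap, the 10 largest rises were in Fgfbp1, Perp, Ms4a10, Cpz, Lpar6, Cyr61, Cd80, Ltb4r2, Cdkn2b and Fas. Fgfbp1, a secreted carrier of fibroblast growth factors, stood at 1.26, 1.9 and 2.7 FPKM in siNT and 37.7, 124 and 144 FPKM in siRpl14, and rose by 4.94 ± 0.46 (SE) (limma, adjusted p = 0.00115). The second table gave 3.78 and 0 FPKM in siNT and 34.9 and 45.2 FPKM in siRpl14. Cyr61, a matricellular protein, stood at 4.31, 4.11 and 3.94 FPKM in siNT and 24.6, 61.2 and 102 FPKM in siRpl14 with siRpl14 replicate 1 the lowest of its group, and in the second table it was listed at 0 in siNT and at 27.3 and 12.5 FPKM in siRpl14. With siNT at 0, Cyr61 could not be lower in the second table. The cell cycle inhibitor Cdkn2b (p15) stood at 1.03, 1.08 and 0.788 FPKM in siNT and 13.2, 19.2 and 21.2 FPKM in siRpl14. The immune ligand Cd80 and the lipid receptors Lpar6 and Ltb4r2 rose by 3.38 ± 0.30 (SE), 3.45 ± 0.30 (SE) and 3.36 ± 0.22 (SE). Ms4a10 and the carboxypeptidase Cpz, under 1 FPKM in every siNT library and so bound to be higher, differed by 3.66 ± 0.17 (SE) and 3.48 ± 0.14 (SE).

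The 10 largest falls were in Nupr1, Vegfa, Inhbb, Lrrc31, Pycr1, Ndrg1, Ndrg2, Bhlhe40, Fam183b and Stra8. Inhbb, a subunit of activin B, stood at 30.4, 36.7 and 41.4 FPKM in siNT and 9.09, 6.4 and 5.91 FPKM in siRpl14, and fell by 2.20 on the log2 scale (limma, adjusted p = 3.84e-05). Ndrg1 and Ndrg2, stress-responsive genes of 1 family, fell by 2.00 and 1.96, and the circadian repressor Bhlhe40 by 1.94. Stra8, a gene of meiotic entry, stood at 9.28, 16.8 and 16.8 FPKM in siNT and 2.03, 3.39 and 3.42 FPKM in siRpl14. Lrrc31 and Fam183b fell by 2.14 and 1.93.

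The 3 siRpl14 libraries of the first table were graded. Replicate 1, which kept the most Rpl14, was the nearest to siNT, with correlations of 0.947 to 0.957 with the siNT libraries over 8252 genes, against 0.889 to 0.916 for the other 2 siRpl14 libraries. Replicates correlated at 0.965 to 0.978 within siNT and 0.972 to 0.986 within siRpl14, where genes are not independent replicates. The median of the death targets of p53 was 0.59 in replicate 1 against 1.05 and 1.17, that of the arrest targets 0.28 against 1.02 and 1.25, and that of glycolysis -0.63 against -0.97 and -1.04. The 2C-like median did not follow this order: it was 1.55 in replicate 1, 1.46 in replicate 2 and 1.14 in the unnumbered library. Cholesterol synthesis, at -0.66, -0.65 and -0.39, did not follow it either. With 3 libraries no relation to the Rpl14 level was tested. The unnumbered siNT library also held the least Rpl14 of the siNT libraries. Replicate 2 and the unnumbered library of siRpl14 therefore rank differently by Rpl14 level and by its change against siNT of the same title style.

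The unnumbered pair could be compared with the numbered pairs through an interaction term. No gene was called in limma (291 had an unadjusted p under 0.05), and the smallest adjusted p was 0.0732, for the small nucleolar RNA Snora44. With a pseudocount of 0.1 in place of 1, 2 genes were called. A single pair against 2 pairs gives this test little precision, so it does not show that the pairs responded alike.

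The second table repeated the comparison in separate libraries. Of the 4892 genes called in the first table and tested in the second table, 3662 (74.9%) had the same direction there: 1949 of 2670 (73.0%) of those higher and 1713 of 2222 (77.1%) of those lower. Among tested genes without a call in the first table the share was 56.7%, and among the 794 called with at least a 2-fold change it was 684 (86.1%). The fold changes correlated at r = 0.443 over 11015 genes tested in both tables, given as a description because genes share libraries. Both tables called 47 genes, 43 in the same direction, of which 34 rose and 9 fell. Those 43 are 0.806% of the first-table calls and 49.4% of the second-table calls.

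Ranked by the smaller of a gene's 2 changes, the 10 leading genes called in both tables in the same direction were Mdm2, Perp, Plk2, Ptpn14, Serpine2, Cyr61, Rap2b, Trp53inp1, Sdc4 and Phgdh. Serpine2, a secreted protease inhibitor, stood at 26.4, 12.3 and 13.3 FPKM in siNT and 74.8, 121 and 118 FPKM in siRpl14 in the first table and at 3.06 and 5.6 FPKM in siNT and 48.7 and 40.5 FPKM in siRpl14 in the second table, rises of 2.57 ± 0.31 (SE) and 3.13 ± 0.35 (SE) (limma, adjusted p = 0.000943 and 0.0145). The small GTPase Rap2b rose by 2.07 ± 0.24 (SE) and 2.45 ± 0.38 (SE), and the proteoglycan Sdc4 by 1.79 ± 0.26 (SE) and 1.71 ± 0.26 (SE). The second-table calls of Rap2b, Sdc4 and Cyr61 were lost without any 1 library, and that of Serpine2 without replicate 1 of siNT or either siRpl14 library. The groups of none of these 10 genes overlapped in either table. As given above, the siNT values of Cyr61 in the second table left it no room to be lower.

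**Figure D4:**
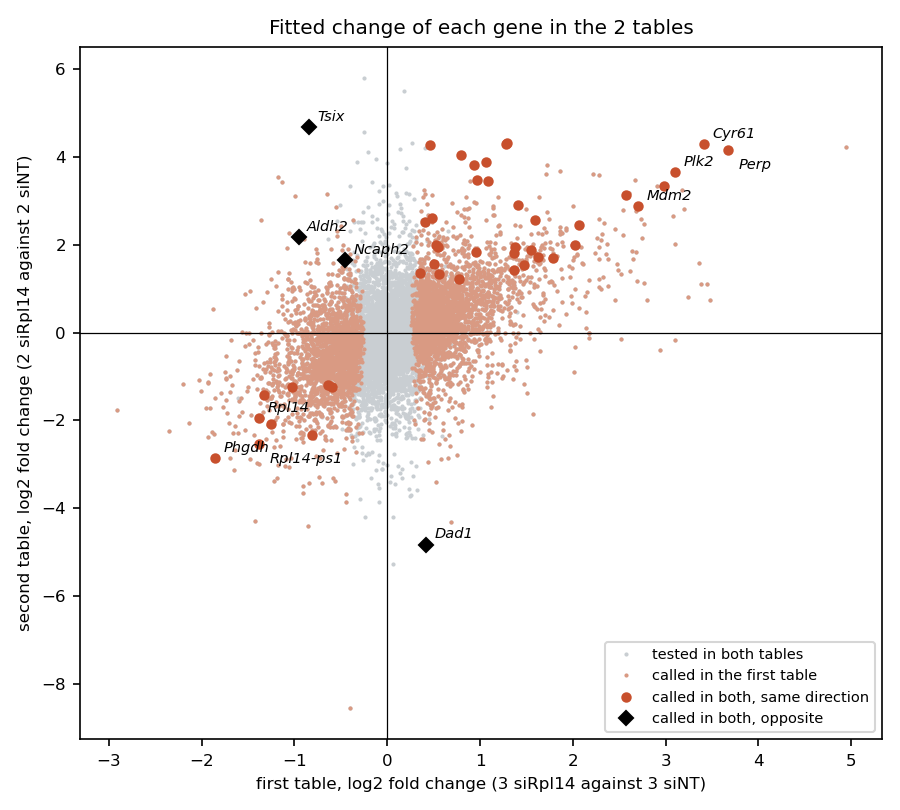
Fitted log2 change of each gene tested in both tables, with the first table on the horizontal and the second table on the vertical axis; large red marks are the 43 genes called in both in the same direction and black diamonds the 4 called in opposite directions. Perp, Cyr61 and Plk2 lie at the upper right, Phgdh at the lower left, and Tsix, Aldh2, Ncaph2 and Dad1 in the opposing quadrants.

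The 2 tables called 4 genes in opposite directions. Aldh2, a mitochondrial aldehyde dehydrogenase, stood at 128, 115 and 112 FPKM in siNT and 71.7, 57.6 and 53.4 FPKM in siRpl14 in the first table and at 38.3 and 36.2 FPKM in siNT and 173 and 172 FPKM in siRpl14 in the second table. Ncaph2, a condensin subunit, stood at 94.5, 82.7 and 68.5 FPKM in siNT and 64.9, 59.2 and 53.6 FPKM in siRpl14 in the first table and at 251 and 263 FPKM in siNT and 738 and 897 FPKM in siRpl14 in the second. All 4 values of these genes in siRpl14 of the second table lay above siNT, and all 6 in the first lay below it. Tsix, the antisense RNA of Xist, stood at 2.41, 3.74 and 4.46 FPKM in siNT and 1.64, 1.73 and 1.13 FPKM in siRpl14 in the first table and at 7.18 and 3.16 FPKM in siNT and 131 and 171 FPKM in siRpl14 in the second. Dad1, a subunit of oligosaccharyltransferase, stood at 133, 132 and 137 FPKM in siNT and 161, 196 and 183 FPKM in siRpl14 in the first table. In the second it was at 12 and 61.3 FPKM in siNT and listed at 0 in siRpl14. The first-table calls of Tsix and Dad1 were lost when some single library was left out (adjusted p up to 0.0538 and 0.0564), and all 4 of the second-table calls were too. Each gene's siRpl14 libraries lay on 1 side of siNT in the first table and on the other in the second table.

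Levels in the second table differed from the first table where genes lie on opposite strands of the same locus. In the GENCODE vM21 annotation, used here for overlaps and names only, 28.0% of 13040 matched genes tested in the second table overlap a gene on the other strand. Among the 530 whose mean in the second table was at least 10 times the first-table mean plus 1 FPKM, the share was 80.9%, and among the 85 matched genes called in the second table it was 42.4%. Ncaph2 overlaps Sco2, a p53 target of the respiratory chain, which stood at 4.47, 3.51 and 3.62 FPKM in siNT and 11.1, 25.8 and 24.9 FPKM in siRpl14 in the first table and at 1789.8 and 1995 FPKM in siNT and 2652 and 2948 FPKM in siRpl14 in the second table. Gm15441, called higher in the second table at 576 and 695 FPKM in siNT and 2778 and 3365 FPKM in siRpl14, overlaps Txnip, a glucose-responsive inhibitor of thioredoxin, which in the first table stood at 259.8, 113 and 125 FPKM in siNT and 284, 313 and 354 FPKM in siRpl14. Tsix overlaps Xist, at 0.0923, 0.408 and 0.221 FPKM in siNT and 1.2, 2.64 and 3.24 FPKM in siRpl14 in the first table and 169.5 and 214 FPKM in siNT and 122 and 120.1 FPKM in siRpl14 in the second table. The strand setting of either table is not given in the sources used here, so which gene of such a pair the second-table values belong to was not tested. Of the 10 shared genes above, 9 were found in the annotation under the tables' symbol, all but Cyr61, and none of the 9 overlaps a gene on the other strand, nor do Aldh2 and Dad1.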

How the data were processed

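Libraries came from a strand-marking mRNA kit, per the labels' protocols. The submitters' processing notes name STAR, Cuffnorm and build mm9, with no order or role; the sources used here give no version, gene annotation, strand setting or normalization. The authors deposited FPKM per gene in 2 tables, with no counts, so the depth behind each value is unknown and no counting interval can be given. The tables were treated as separately normalized and each was tested alone.

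Values were taken as log2(FPKM + 1) and fitted with limma 3.58.1 (statmod 1.5.0, R 4.3.3) with trended, robust empirical Bayes. Adjusted p-values (Benjamini-Hochberg over all genes tested) under 0.05 were called. The first-table fit held the 6 libraries with title style as a covariate and tested genes reaching 1 FPKM in 3 or more of them. The second-table fit added the 2 siDux and 2 siRpl14 plus siDux libraries so that 4 groups share the estimate of the spread, and tested genes reaching 1 FPKM in 2 or more of the 8 libraries. The scripts were tested on simulated data with independent normal noise. That is a check of the code, with a result required for the first table only, and it does not show that the calls in either table are right.

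The libraries described and the 36 gene lists were chosen with earlier results of these data known, so list counts are descriptions without a test. Named genes follow a rule: the targets and a short set of known genes, the 10 largest non-overlapping rises and falls, the 10 leading genes called in both tables in 1 direction, ranked by the smaller of their 2 changes, genes called in opposite directions, and up to 4 called members of each list in its main direction and 2 in the other. It gave 209 genes, of which 203 were called in the first table and 39 lost a call when some library was left out; the text prints some of them, mostly those that kept their call. Txnip, Sco2, Xist, Gm15441, Snora44, Chaf1a, Trim28, Eomes, Ldha, Gm13119 and BB287469 fall outside the rule and were chosen after their values were seen. Alternatives were the title-style term, a replicate block, the libraries in the fit, the pseudocount, the filter, the scaling, the moderation and leaving out each library. Promoters were read from RefSeq (GRCm38.p6), and gene overlaps from GENCODE vM21; no mm9 coordinates were used. Proteins are not printed. Same-numbered libraries of siNT and siRpl14 deviated from their group means with r = 0.206 in the first table and 0.0304 in the second table, and with 2 numbered pairs this does not show that they are paired.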

Additional observations from a re-analysis of the deposited data

Results flagged for a closer look

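The 4 genes called in both tables in opposite directions stand out because every siRpl14 library of one table moved one way against siNT and every siRpl14 library of the other moved the opposite way. The difference between the tables was not tested. Aldh2 changed by -0.96 on the log2(FPKM + 1) scale in the first table and by 2.18 in the second table. Dad1 changed by 0.42 in the first table and by -4.83 in the second table, where both siRpl14 libraries list it at 0. Ncaph2 changed by -0.45 and 1.66, and Tsix by -0.84 and 4.69. Ncaph2 and Tsix each overlap a gene on the other strand, Sco2 and Xist. In the first table Sco2 rose by 2.07, and Xist, which passed the filter only through siRpl14, was higher by 1.39. For Aldh2 and Dad1 the annotation used holds no such gene.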

How the results depend on the processing

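In the first table the number of genes called stayed within 1.5 times the 5335 reported except for the lower calls, 1634 with the numbered pairs alone, and for leaving out 1 library, which gave 3332 to 5858 calls, 1739 to 3031 of them higher and 1428 to 2827 lower. Median-ratio and quantile scaling turned the majority of calls to the lower side: 2633 higher and 2735 lower with the former, 2542 and 2814 with the latter. Of 139 genes whose tests were considered, 135 were called and 130 kept the call in every setting in which they were tested, but of the 203 called genes that the naming rule gave, 39 lost a call when some library was left out. Quantile normalization reversed Rpl11, to 0.08, and Pou5f1, to 0.01, neither of them called in the main analysis. In the second table the 87 calls fell to 2 (1 higher, 1 lower) with siNT and siRpl14 alone, to 54 (44 and 10) with no filter and to 36 (26 and 10) without the trend and robust options, and leaving out 1 library gave 8 to 30, 5 to 28 of them higher and 2 to 4 lower. None of the 19 genes considered there kept its call in every setting. The interaction with title style called 0 genes, and 2 with a pseudocount of 0.1. The cause of these shifts was not tested, beyond the fewer libraries that some fits hold.

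The fit with a replicate block, in which same-numbered libraries form a block, called 5771 genes in the first table (3092 higher, 2679 lower) and 81 in the second table (64 higher, 17 lower). The libraries share only a number, so the blocked counts are given here alone. Without counts, what depth limits cannot be computed. In the second table the 10th percentile of values above 0 lay at 1.08 to 1.58 FPKM, against 0.0626 to 0.0821 in the first table, so low genes such as Dux are not resolved there.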

Other observations

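Some members of several lists outside the main comparison were called in the first table. In the Nodal and activin pathway, 7 of 16 genes rose and 4 fell, with the ligand Nodal at 32.9, 32.3 and 41.5 FPKM in siNT and 64.5, 109 and 121 FPKM in siRpl14 and its target and inhibitor Lefty1 at 20.7, 22.3 and 20.6 FPKM in siNT and 66.8, 68.2 and 51.4 FPKM in siRpl14. Nodal rose by 1.40 ± 0.17 (SE) and Lefty1 by 1.5 ± 0.11 (SE), while the activin subunit Inhbb was among the 10 largest falls. Of 16 FGF and ERK feedback genes, 8 rose and 3 fell, and the AP-1 factor Fosl1, which passed the filter only through siRpl14, was higher by 2.94 ± 0.33 (SE). Of the 3 that fell, 1 did without either unnumbered library or replicate 2 of siRpl14. Of 12 genes of the Myc and Max network, 3 rose and 3 fell, near the 24.0% and 20.9% of all tested genes. Mycn rose by 1.22 ± 0.11 (SE), and Mxd4, a Myc antagonist, by 1.37 ± 0.16 (SE). Myc itself stood at 7.35, 14.8 and 27.5 FPKM in siNT and 19.1, 18.1 and 20.3 FPKM in siRpl14, with overlapping groups. No member of these lists was called in the second table. The medians there were -0.19 for Nodal and activin, 0.12 for FGF and ERK and 0.25 for Myc and Max. In the first table they were 0.11, 0.53 and 0.08. The FGF and ERK medians of the single siRpl14 libraries were -0.07 and -0.45 in the second table, against 0.35, 0.69 and 0.2 in the first.

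Of 59 mitochondrial ribosomal protein genes, 16 rose and 2 fell, but 8 rose without replicate 2 of siRpl14. The number risen was near the 24.0% of all tested genes called higher. The respiratory chain had 2 of 49 higher and 8 lower, and 2 lower without the unnumbered siNT or siRpl14 library. The proteasome had 1 of 36 higher and 2 lower (0 to 12 lower when 1 library was left out, with 12 without replicate 1 of siRpl14), and the chaperones 1 of 28 higher and 3 lower (1 to 7, with 7 without the same library). Hsp90b1, the chaperone of the endoplasmic reticulum, fell by 0.70. Of 8 interferon response genes, 1 rose and 4 fell, among them Oas1a by 1.27 and Stat2 by 0.95. Germline genes split, with 4 of 14 higher and 5 lower (3 lower without replicate 1 or the unnumbered library of siNT, 2 higher without replicate 2 or the unnumbered library of siRpl14). Taf7l, a testis factor, rose in both tables, by 1.59 ± 0.24 (SE) and 2.56 ± 0.38 (SE), the second-table call being lost without any 1 library. Of 4 tested genes of the fibroblast list, 3 rose and Thy1 fell, by 1.18, and no rise was called without the unnumbered siNT or siRpl14 library. Among the 3, 1 never reached 1 FPKM in a siNT library and had to be higher to pass the filter. The same held for 1 tested member each of the germline and chaperone lists.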
